A study of Bos taurus with 6 samples.

Results

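The genes described here are 10 genes of stratified squamous epithelium, the layered lining that covers the skin, the oesophagus and the forestomachs of ruminants. They were taken by name as KRT15, KRT4, IVL, KRTDAP, TRIM29, ZNF750, GSDMC, LORICRIN, PERP and A2ML1, and all 10 were rows of a table of 14179 gene symbols. Poly(A) RNA had been sequenced from rumen, the largest forestomach chamber, and from forebrain and liver, with 2 libraries per tissue, called Rumen 1 and 2, Forebrain 1 and 2, and Liver 1 and 2. The animals were wild-type male Holstein fetuses at 90 days, 13 to 16 cm from crown to rump, collected at a slaughterhouse from healthy cows, and the labels name no allele or agent in any group. The labels count 4 fetuses in the study, 2 male and 2 female, and mark all 6 libraries as male, so the tissues shared animals, and the fetus behind each library is not named. The p-values therefore measure only the spread between these libraries, which may be technical.

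In a stratified squamous epithelium, dividing cells sit on the basement membrane and their daughters move up, swapping one set of keratins for another and joining to each other by desmosomes. In the uppermost layers, transglutaminases crosslink precursor proteins such as involucrin and loricrin under the cell membrane into a cornified envelope. The adult rumen carries such a lining, keratinised at the surface, over a wall of smooth muscle and connective tissue, so a piece of rumen holds many cell types. In bulk RNA, fewer cells of a type and less RNA per cell cannot be told apart.

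Total counts ran from 10271024 to 18528958 per library. Levels are given as CPM, which are counts scaled to a common effective library size. The floor used for a tissue without counts, 3 counts over its library pair, was 0.116 CPM for rumen, 0.115 CPM for forebrain and 0.103 CPM for liver. Such floors and all counting intervals cover counting error only. The labelled tissues carried their defining markers, with a summed level of 8 hepatocyte genes of 197409 to 235460 CPM in liver and of 8 neuronal genes of 10738 to 11171 CPM in forebrain, while the 8 smooth muscle and 8 fibroblast genes summed to 9792 to 10378 and 16990 to 17638 CPM in rumen. Of 11478 genes tested with edgeR's quasi-likelihood test at an adjusted p of 0.05, 19.5% were higher and 19.9% lower in rumen than in forebrain (39.3% in all), and 20.1% were higher and 20.3% lower in rumen than in liver (40.3% in all). With total counts as the only scaling, the share of calls that were higher was 62.5% in place of 49.8% for rumen against liver, and 39.4% in place of 53.2% for liver against forebrain.

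The 10 genes fell into a large group that was abundant in rumen and nearly empty elsewhere, a pair with levels in more than 1 tissue (PERP and A2ML1), and LORICRIN, which was nearly absent from rumen. Against forebrain, 9 of the 10 genes were higher in rumen and 1 was lower, beside 19.5% and 19.9% of all tested genes, or 39.3% in either direction. Against liver, 9 were higher and LORICRIN did not pass, beside 20.1% higher and 40.3% in either direction over all tested genes. The median log2 fold change of the 10 genes was 12.65 against forebrain and 11.30 against liver, or 10.36 and 10.90 with genes lacking counts in the other tissue set at their bound, beside -0.01 and -0.06 over all tested genes. All 10 passed the filter on low counts, but 7 reached its level in rumen alone and LORICRIN in forebrain alone, so their counts describe the genes and add no support. Markers of other cells of the rumen wall were higher in rumen too, with all 8 smooth muscle genes in both comparisons and 7 of 8 fibroblast genes against forebrain and 8 against liver. Of 10 genes listed for simple epithelium, 8 were higher and 0 lower against forebrain. Against liver 5 were higher and 1, KRT18, was lower, beside 20.3% lower over all tested genes. Whether these 10 mark other cells than those that hold the genes described here was not tested. The part of other cells in the levels of the 10 genes described here was not tested either.

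**Figure D1:**
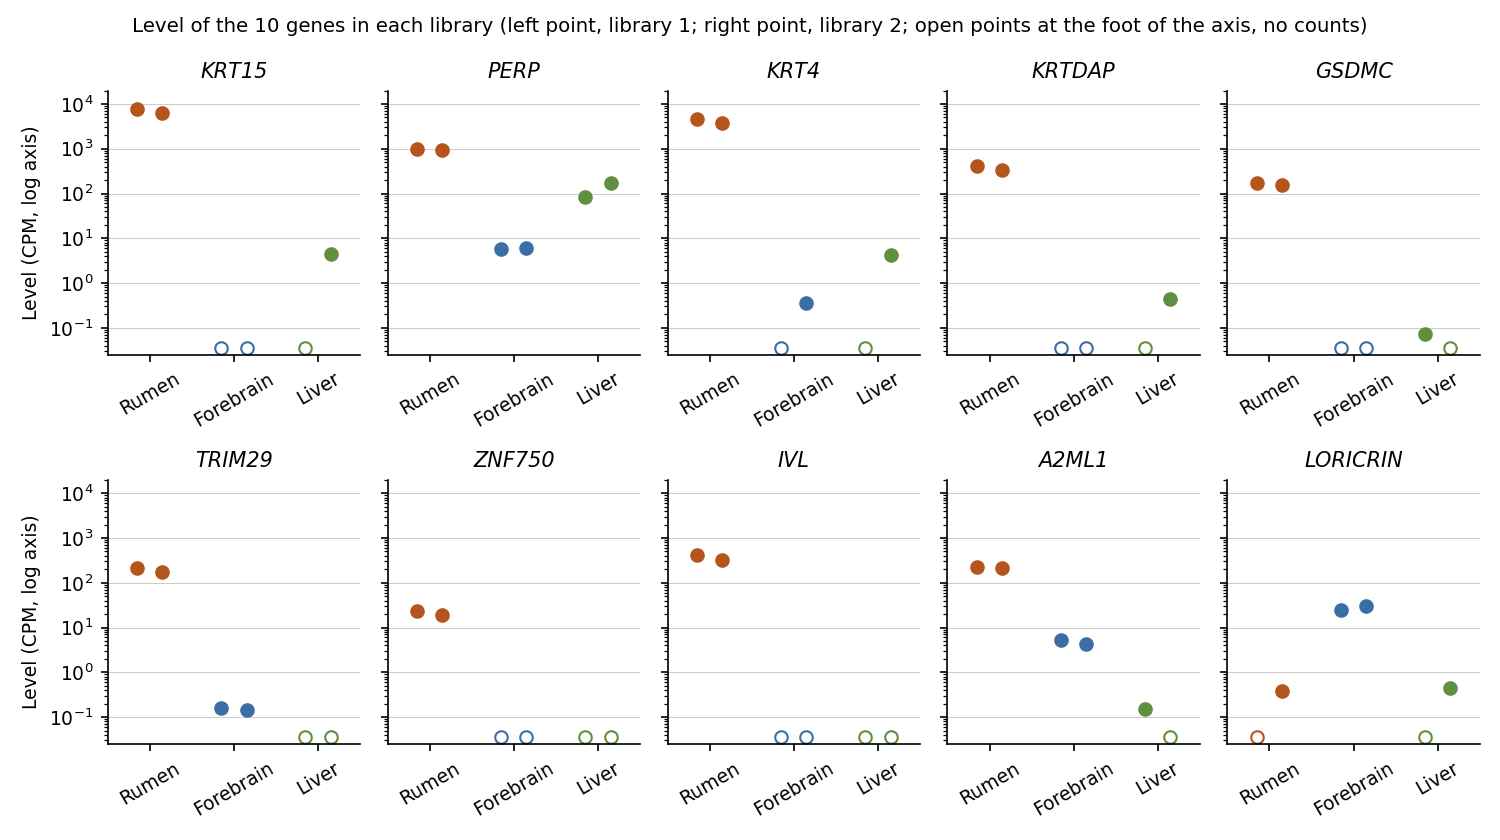
Level in CPM (log axis) of each of the 10 genes in the 2 rumen, 2 forebrain and 2 liver libraries, 1 point per library. Open points at the foot of the axis stand for libraries without counts. KRT15, at 7862 and 6272 CPM in rumen, was high there alone, as were 6 others, whereas LORICRIN was high in forebrain alone and PERP had levels in all 3 tissues.

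KRT15 is a type I keratin of basal cells, and it had more counts than any other of the 10 genes. Rumen 1 held 7862 CPM of it and Rumen 2 held 6272 CPM, with no counts in either forebrain library, none in Liver 1 and 4.37 CPM in Liver 2. Rumen was thus high in both libraries and overlapped with no other library. By raw counts, with no correction for length, it ranked 9 among all genes of Rumen 1 and 11 in Rumen 2, with 0.796% and 0.673% of all counts. Its rumen level pooled over both libraries was at least 61662-fold higher than in forebrain, taken at its floor (edgeR's quasi-likelihood test, adjusted p = 0.00275). Against liver the fitted log2 fold change was 11.62 ± 1.62 (SE; edgeR's quasi-likelihood test, adjusted p = 0.00383), a value that rests on the 68 counts of Liver 2 and was 19.50 without that library, with liver then empty.

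PERP encodes a membrane protein of desmosomes that in mice is needed for intact stratified epithelia. It stood at 984 and 944 CPM in Rumen 1 and 2, 5.86 and 5.99 CPM in Forebrain 1 and 2, and 85.6 and 172 CPM in Liver 1 and 2. The tissues did not overlap, and PERP gave the narrowest rumen pair relative to its level, at 964 ± 28.6 CPM (SD, n = 2). Rumen was 162-fold above forebrain (log2 fold change 7.34 ± 0.45, SE; edgeR's quasi-likelihood test, adjusted p = 0.000263) and 7.47-fold above liver (2.90 ± 0.36; edgeR's quasi-likelihood test, adjusted p = 0.00156). The value against liver was 3.49 on the log2 scale without Liver 2, the library with the higher liver level, and 2.48 without Liver 1. PERP was also the only one of the 10 genes that was higher in liver than in forebrain, beside 29.4% of all tested genes (55.3% in either direction), with a log2 fold change of 4.44 ± 0.40 (SE; edgeR's quasi-likelihood test, adjusted p = 0.000263). Without Liver 1 the number of such genes was 4, since KRT15, KRT4 and KRTDAP then passed on Liver 2 alone.

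KRT4 is a type II keratin of the suprabasal layers of mucosal linings such as the oesophagus. Rumen 1 held 4613 CPM and Rumen 2 held 3789 CPM of it, beside 0.361 CPM in Forebrain 2 and 4.24 CPM in Liver 2, without counts in Forebrain 1 and Liver 1. Both rumen libraries lay far above all others. The log2 fold change was 14.37 ± 1.82 against forebrain and 10.91 ± 1.53 against liver (SE; edgeR's quasi-likelihood test, adjusted p = 0.00183 and 0.00242), and each rests on the few counts of 1 library, 5 in Forebrain 2 and 66 in Liver 2. Without Forebrain 2 the value against forebrain was 18.80, and without Liver 2 that against liver was 18.75, with the other tissue then empty. The levels of KRT15 and KRT4 are uncertain to the extent that keratins resemble each other and share reads.

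KRTDAP encodes a small secreted protein made by keratinocytes as they leave the basal layer. It had 419 CPM in Rumen 1 and 332 CPM in Rumen 2, none in forebrain or Liver 1, and 0.450 CPM, or 7 counts, in Liver 2. Rumen was at least 3277-fold higher than forebrain, and its log2 fold change against liver was 10.57 ± 0.82 (SE; edgeR's quasi-likelihood test, adjusted p = 0.000601), with the liver value again from Liver 2 alone (15.26 without it). GSDMC belongs to the gasdermins, a family of pore-forming proteins. It had 172 and 159 CPM in Rumen 1 and 2 and no counts in forebrain or Liver 2, with a single count in Liver 1. The rumen level was at least 1441-fold higher than in forebrain and 4794 times that of liver, with a counting interval of 860 to 189379. Both genes thus had levels in both rumen libraries and next to nothing in the others.

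The regulators TRIM29 and ZNF750 were likewise found in rumen. TRIM29 encodes a tripartite motif protein of squamous epithelia, and had 218 and 171 CPM in Rumen 1 and 2, 2 counts in each forebrain library (0.163 and 0.144 CPM) and none in liver. Its log2 fold change against forebrain was 10.23 ± 0.41 (SE; edgeR's quasi-likelihood test, adjusted p = 0.000251), and rumen was at least 1884-fold higher than liver. ZNF750 encodes a zinc finger factor that in human keratinocytes acts downstream of p63 in terminal differentiation. It had the lowest level of the genes abundant in rumen, 24.0 CPM in Rumen 1 and 18.97 CPM in Rumen 2, with no counts in any other library. Its rumen level was at least 187-fold higher than in forebrain and at least 208-fold higher than in liver (edgeR's quasi-likelihood test, adjusted p = 0.00228 and 0.00199).

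The genes of the cornified envelope and its surroundings parted ways. IVL encodes involucrin, an early scaffold of the envelope. It had 421 and 329 CPM in Rumen 1 and 2, and no counts in any forebrain or liver library. Rumen was at least 3273-fold higher than forebrain and at least 3629-fold higher than liver (edgeR's quasi-likelihood test, adjusted p = 0.000345 and 0.000285). A2ML1 encodes a protease inhibitor that human keratinocytes secrete in the granular layer. It had 221 and 209 CPM in Rumen 1 and 2, 5.29 and 4.26 CPM in Forebrain 1 and 2, and 2 counts in Liver 1 with none in Liver 2. Forebrain therefore held a low level of A2ML1, below both rumen libraries and above both liver libraries. Rumen was 44.9-fold above forebrain (log2 fold change 5.49 ± 0.41, SE; edgeR's quasi-likelihood test, adjusted p = 0.000388). Against liver, rumen stood at 3113 times the level, with a counting interval of 861 to 25714.

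LORICRIN, the glycine-rich protein that in skin makes up most of the mature envelope, went the other way. It had no counts in Rumen 1 and 0.390 CPM, or 5 counts, in Rumen 2, against 25.1 CPM in Forebrain 1 and 30.5 CPM in Forebrain 2. Liver 1 had no counts and Liver 2 had 0.450 CPM, or 7 counts. Forebrain was the one tissue with a clear level, and rumen and liver overlapped near the floor. LORICRIN was lower in rumen than in forebrain, with a log2 fold change of -7.10 ± 1.32 (SE; edgeR's quasi-likelihood test, adjusted p = 0.00746). Without Forebrain 2 it did not pass (log2 fold change -6.92, edgeR's quasi-likelihood test, adjusted p = 0.0569), and without Rumen 2 the value was -11.56 with rumen empty. Against liver the difference was -0.26 ± 1.48 (SE; edgeR's quasi-likelihood test, adjusted p = 0.907), at 5 and 7 counts per tissue. In liver LORICRIN was also lower than in forebrain (log2 fold change -6.83 ± 1.29, SE; edgeR's quasi-likelihood test, adjusted p = 0.00502), as were A2ML1 and, at 0 against 4 counts, TRIM29, which makes 3 of the 10 genes beside 25.9% of all tested genes. TRIM29 no longer passed without any one of the forebrain or liver libraries.

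The annotation behind the counting is not given, so whether the forebrain reads come from LORICRIN itself could not be checked. Markers of basal keratinocytes in forebrain were mixed. KRT15, KRT14 and TP63 had no counts there, and KRT5 had 24 counts in Forebrain 1 and 5 in Forebrain 2. Other genes of the basal list, which are also expressed outside epithelium, had clear levels, with CAV1 (caveolin) at 209 and 291 counts, ITGA6 (an integrin) at 166 and 108, CDH3 (P-cadherin) at 97 and 120 and LAMB3 (a laminin chain) at 34 and 36 in Forebrain 1 and 2. The 12 measured genes of that list summed to 1618 and 1327 CPM in Rumen 1 and 2, against 44.3 and 43.6 CPM in Forebrain 1 and 2. Of 9 hair follicle and skin appendage genes in the list used, LHX2, also a factor of forebrain development, was the one with more than 6 counts in a forebrain library. The hair keratins KRT81 and KRT86, outside that list and added after their values were seen, had 413 and 257 counts and 34 and 16 counts in Forebrain 1 and 2, with none in rumen. Their part in the LORICRIN level was not tested. By centred log2 profiles over the 6 libraries, the genes nearest to LORICRIN were LHX9 at a Euclidean distance of 1.482, GFAP at 1.572 and NRN1 at 1.636, all of them high in forebrain. GFAP, an intermediate filament gene of astrocytes, stood at 0.765 and 1.48 CPM in Rumen 1 and 2 against 96.3 and 106 CPM in Forebrain 1 and 2. The genes nearest to KRT15 were KRT4 at 2.07, KRTDAP at 4.771 and SFN at 5.14. The nearest to IVL were PITX1 at 0.3439, UPK3BL1 at 0.4635 and GSDMC at 1.615, genes with no counts, or a single one, outside rumen.

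The rumen libraries differed slightly in these genes. LORICRIN aside, the 9 genes were all higher in Rumen 1 by CPM, with ratios of Rumen 1 over Rumen 2 from 1.043 to 1.281. For PERP and A2ML1 this direction depended on the scaling. As shares of total counts, PERP had 0.0996% in Rumen 1 and 0.101% in Rumen 2, and A2ML1 had 0.02235% and 0.02238%. LORICRIN went the other way, at 0 counts in Rumen 1 and 5 in Rumen 2. A split of the 9 was drawn after their values were seen. KRT15, KRT4, IVL, KRTDAP, TRIM29 and ZNF750 lay between 1.218 and 1.281, whereas GSDMC, PERP and A2ML1 lay between 1.043 and 1.081. The median ratio over 7487 tested genes with at least 100 counts in both rumen libraries was 1.003, with quartiles at 0.888 and 1.142. Of these genes, 3801 had a ratio above 1. GSDMC, PERP and A2ML1 lay within the quartiles, and the ratio of KRT15, at 1.254, stood above 87.2% of the 7487 genes. Among the cell type lists, the simple epithelium genes had a median ratio of 1.2 with 6 of 9 above 1. The smooth muscle genes had 1.027 with 4 of 8, and the fibroblast genes 0.959 with 2 of 8. The other lists had fewer genes with at least 100 counts in both rumen libraries. Of these, 2 erythroid genes had a median of 1.225 with 2 above 1, and the hepatocyte gene APOA1 had 1.191. The 3 neuronal genes had a median of 1.011 with 2 above 1. Summed levels of the full lists in Rumen 1 and Rumen 2 were 1444 and 1203 CPM for simple epithelium, 9792 and 10378 CPM for smooth muscle, and 16990 and 17638 CPM for fibroblasts. No simple epithelium, smooth muscle or fibroblast marker was at 0. The part of tissue makeup in the ratios was not tested, and with 1 library on each side they describe these libraries only.

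**Figure D2:**
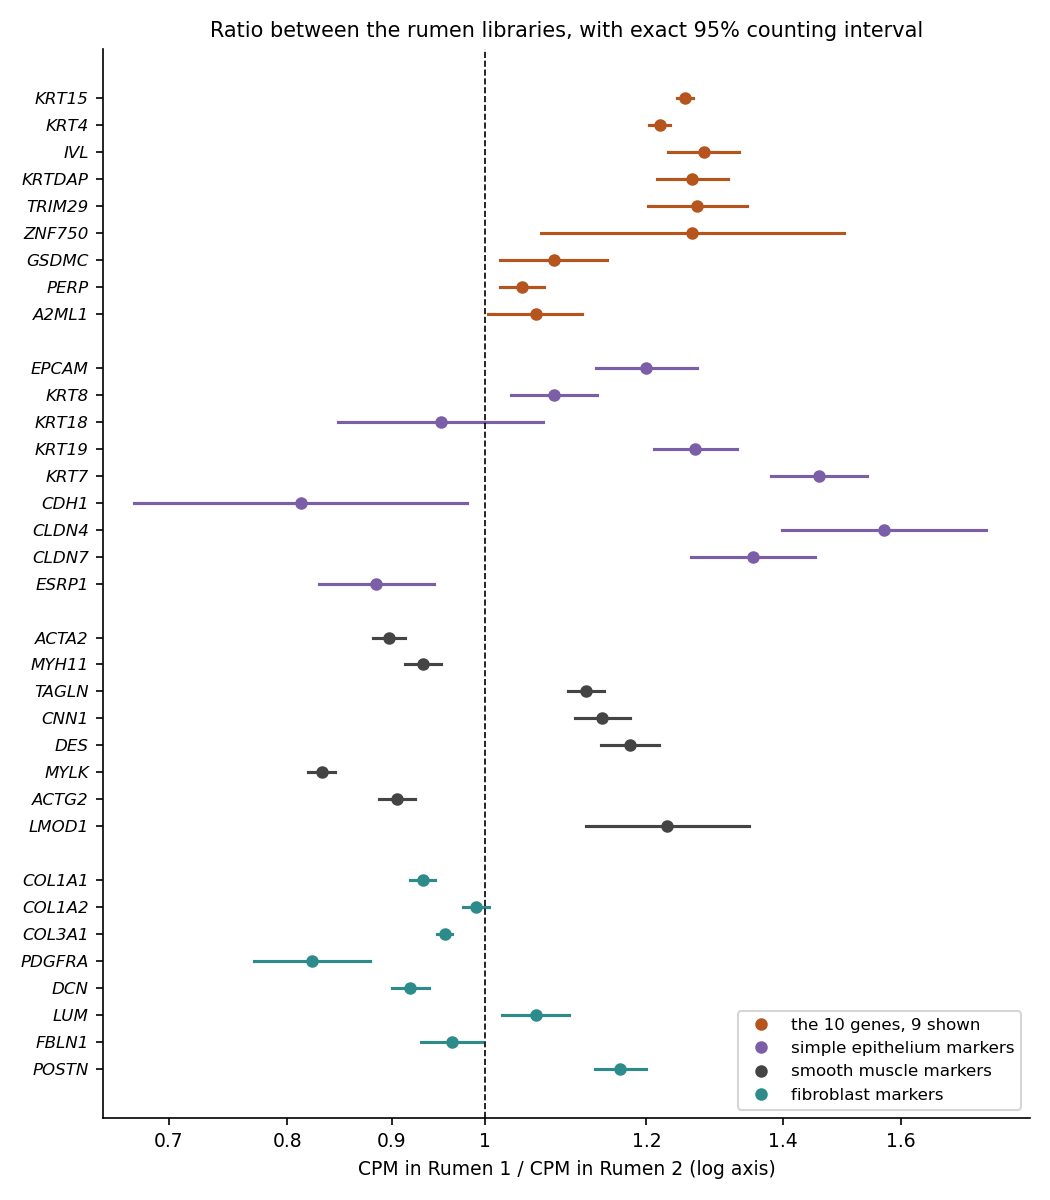
Ratio of the CPM of Rumen 1 over that of Rumen 2 (log axis) for 9 of the 10 genes and for other markers, 1 row per gene. The markers are those of simple epithelium, smooth muscle and fibroblasts with at least 100 counts in both libraries. Neuronal, hepatocyte and erythroid markers are not drawn. Lines are exact 95% counting intervals and the dashed line marks a ratio of 1. The 9 genes lie to the right of it, from 1.043 (PERP) to 1.281 (IVL), while markers of smooth muscle and fibroblasts lie on both sides.

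Setting each gene against KRT15 within its own library removes depth and scaling from the comparison. No correction for transcript length was made, so these values compare the libraries and not the genes. For every 100 counts of KRT15, KRT4 had 58.7 counts in Rumen 1 (exact 95% counting interval 58.1 to 59.3) and 60.4 in Rumen 2 (59.7 to 61.1). IVL had 5.36 (5.21 to 5.50) in Rumen 1 and 5.25 (5.08 to 5.41) in Rumen 2. KRTDAP had 5.33 and 5.29, TRIM29 2.77 and 2.73, and ZNF750 0.305 and 0.302 in Rumen 1 and 2. The intervals of the libraries overlapped for IVL, KRTDAP, TRIM29 and ZNF750, and for KRT4, the gene with the most counts among them, they lay just apart. PERP had 12.5 (12.3 to 12.8) and 15.05 (14.8 to 15.3), A2ML1 2.81 (2.71 to 2.92) and 3.33 (3.20 to 3.46), and GSDMC 2.18 (2.09 to 2.28) and 2.53 (2.42 to 2.65) in Rumen 1 and 2. For these 3 genes the intervals of the libraries did not overlap, and the proportion was lower in Rumen 1. The proportions restate the ratios between the rumen libraries relative to that of KRT15. They therefore add no support to the split drawn from those ratios.

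Liver 2 was the only library outside rumen with more than 5 counts of KRT15, KRT4 or KRTDAP. Its 68 counts of KRT15 and 66 of KRT4 corresponded to 0.0618% and 0.101% of their mean CPM in rumen, and it had no counts of IVL, TRIM29, ZNF750, GSDMC or A2ML1. For every 100 counts of KRT15 it had 97.1 of KRT4, with a counting interval of 68.1 to 138, above the 58.7 and 60.4 of the rumen libraries. For IVL the interval reached up to 5.58, so a proportion like that of rumen could not be told from none at this depth.

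The other genes of stratified epithelium came from lists chosen with earlier results of these data known. They were mostly higher in rumen where they belong to the basal and suprabasal layers. Most measured envelope genes had no counts in either rumen library, and the same held for each liver library. Companions without counts outside rumen, such as TP63, KRT6A and CERS3, passed the filter on low counts through rumen alone. Calls of such genes describe them and add no support. Of 16 basal companions, 12 were in the table and 10 were tested. In rumen 9 were higher than in forebrain (19.5% of all tested genes) and 8 higher than in liver (20.1%), with 0 lower, and 1 and 2 not passing. Without Liver 2, 1 was lower than in liver. Their median log2 fold change was 7.04 against forebrain, or 5.43 with empty tissues at their bound, and 3.74 against liver. The 3 with the highest rumen level were the calcium-binding protein gene S100A2 at 396 and 257 CPM in Rumen 1 and 2, the 14-3-3 protein gene SFN at 337 and 306, and the basal keratin KRT5 at 351 and 251. TP63, the master factor of stratified epithelia, had 17 counts in Rumen 1 and 66 in Rumen 2 and none elsewhere, which is 1.30 and 5.15 CPM. It thus ran against KRT15, with a ratio of Rumen 1 over Rumen 2 of 0.253 (exact 95% counting interval 0.139 to 0.435). That ratio rests on fewer than the 100 counts per library asked of the cell type markers. KRT5, S100A2 and SFN were higher in Rumen 1, as KRT15 was, with ratios of 1.397, 1.539 and 1.103. KRT14, the usual partner of KRT5 in skin, had only 9 and 8 counts in Rumen 1 and 2. TP63 and KRT14 were singled out after their values were seen.

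Of 26 suprabasal companions, 19 were in the table and 17 were tested. In rumen 14 were higher and 1 lower than in forebrain, with 2 not passing, beside 19.5% and 19.9% of all tested genes. Against liver 16 were higher and 0 lower, with 1 not passing, beside 20.1% and 20.3%. Their median log2 fold change was 6.08 against forebrain and 5.83 against liver, or 5.93 and 5.66 with empty tissues at their bound. The highest rumen levels belonged to 3 genes of desmosomes, JUP (plakoglobin) at 500 and 415 CPM, DSP (desmoplakin) at 401 and 390 CPM and PKP3 (plakophilin 3) at 134 and 104 CPM in Rumen 1 and 2. Desmosomes are not particular to stratified epithelium, and JUP stood at 36.2 and 49.2 CPM in forebrain and DSP at 33.3 and 41.5 CPM in liver. The keratin KRT10, which replaces the basal keratins in cornifying skin, did not pass against forebrain, at 11.6 and 10.1 CPM in Rumen 1 and 2 and 13.6 and 11.4 CPM in Forebrain 1 and 2. It was higher in rumen than in liver, where it had 1.04 and 1.61 CPM (log2 fold change 3.02, edgeR's quasi-likelihood test, adjusted p = 0.00411). The lower gene was SBSN, a secreted keratinocyte protein, with no counts in rumen and 13 and 10 in Forebrain 1 and 2, and it did not pass without any one of the rumen or forebrain libraries.

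The envelope list held far fewer genes that could be tested. Of 26 companions, 13 were in the table, and 8 of these had no counts in either rumen library, namely TGM3, CNFN, CSTA, CDSN, CASP14, TCHHL1, CRNN and CRCT1. Such zeros were not particular to rumen. Of the same 13 genes, 8 were at 0 in each liver library and 6 in each forebrain library. CNFN, CDSN and CRNN had no counts in any library. Only 5 were tested. FLG, KRT1 and KRT13 were not analysed here. In rumen 3 were higher and 1 lower than in forebrain, and 2 were higher and 1 lower than in liver, with a median log2 fold change of 2.76 and 0.85. With 5 genes tested, 1 lower gene is about the share over all tested genes, 19.9% against forebrain and 20.3% against liver, while 19.5% and 20.1% were higher. EVPL (envoplakin), which links desmosomes to the envelope, stood at 166 and 161 CPM in Rumen 1 and 2, and the envelope protein gene SCEL (sciellin) at 70.3 and 59.2 CPM, and both were higher in rumen in both comparisons. ECM1 was higher than in forebrain and lower than in liver, at 18.6 and 21.5 CPM in Rumen 1 and 2, 3.09 and 2.82 CPM in forebrain and 102 and 146 CPM in liver. TGM1, the main transglutaminase of keratinocytes, passed in neither comparison, at 2.37 and 2.97 CPM in Rumen 1 and 2, 0.895 and 0.866 CPM in forebrain and 0.372 and 2.57 CPM in liver. CSTA, the lower gene against forebrain, had no counts in rumen and 26 and 47 in Forebrain 1 and 2, and it did not pass without any one of the rumen or forebrain libraries.

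The lipid and protease genes of the surface were called in both directions. Of 24 such companions, 19 were in the table and 12 were tested. In rumen 5 were higher and 3 lower than in forebrain, beside 19.5% and 19.9% of all tested genes, and 7 were higher and 1 lower than in liver, beside 20.1% and 20.3%. The lower counts are thus near or under the share over all genes. The median log2 fold change was 0.84 against forebrain and 3.23 against liver. SPINK5, an inhibitor of the proteases that shed surface cells, stood at 122 and 97.5 CPM in Rumen 1 and 2 and was higher in both comparisons. The membrane protease gene ST14 was also higher in both, at 90.5 and 60.4 CPM. ELOVL1, which lengthens fatty acids in many tissues, was higher than in forebrain alone, at 109 and 90.2 CPM in Rumen 1 and 2. Without any one of the rumen or forebrain libraries, the number lower than in forebrain was 1. The number lower than in liver was 0 when Rumen 1 or Rumen 2 was left out and 2 when Liver 1 or Liver 2 was. ABCA12, the lipid transporter of the skin barrier, and the protease gene KLK5 had no counts in rumen and 76 and 109 counts over both forebrain libraries.

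Of 26 epidermal regulators, 22 were in the table and 19 were tested. In rumen 14 were higher and 2 lower than in forebrain, beside 19.5% and 19.9% of all tested genes, and 13 were higher and 1 lower than in liver, beside 20.1% and 20.3%. The median log2 fold change was 4.93 against forebrain and 3.27 against liver. KLF5, a factor of dividing epithelial cells, stood at 1062 and 1069 CPM in Rumen 1 and 2, against 7.73 and 6.21 CPM in Forebrain 1 and 2 and 0.968 and 1.73 CPM in Liver 1 and 2. ELF3 stood at 122 and 130 CPM and TFAP2A at 119 and 130 CPM in Rumen 1 and 2, and both were higher in both comparisons. Without either rumen library, the number of regulators higher than in liver was 8, and without Forebrain 1 the number higher than in forebrain was 9. The number lower than in forebrain was 1 without Forebrain 2 or Rumen 2, and the number lower than in liver was 3 without Liver 2 and 0 without any of the other libraries.

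**Figure D3:**
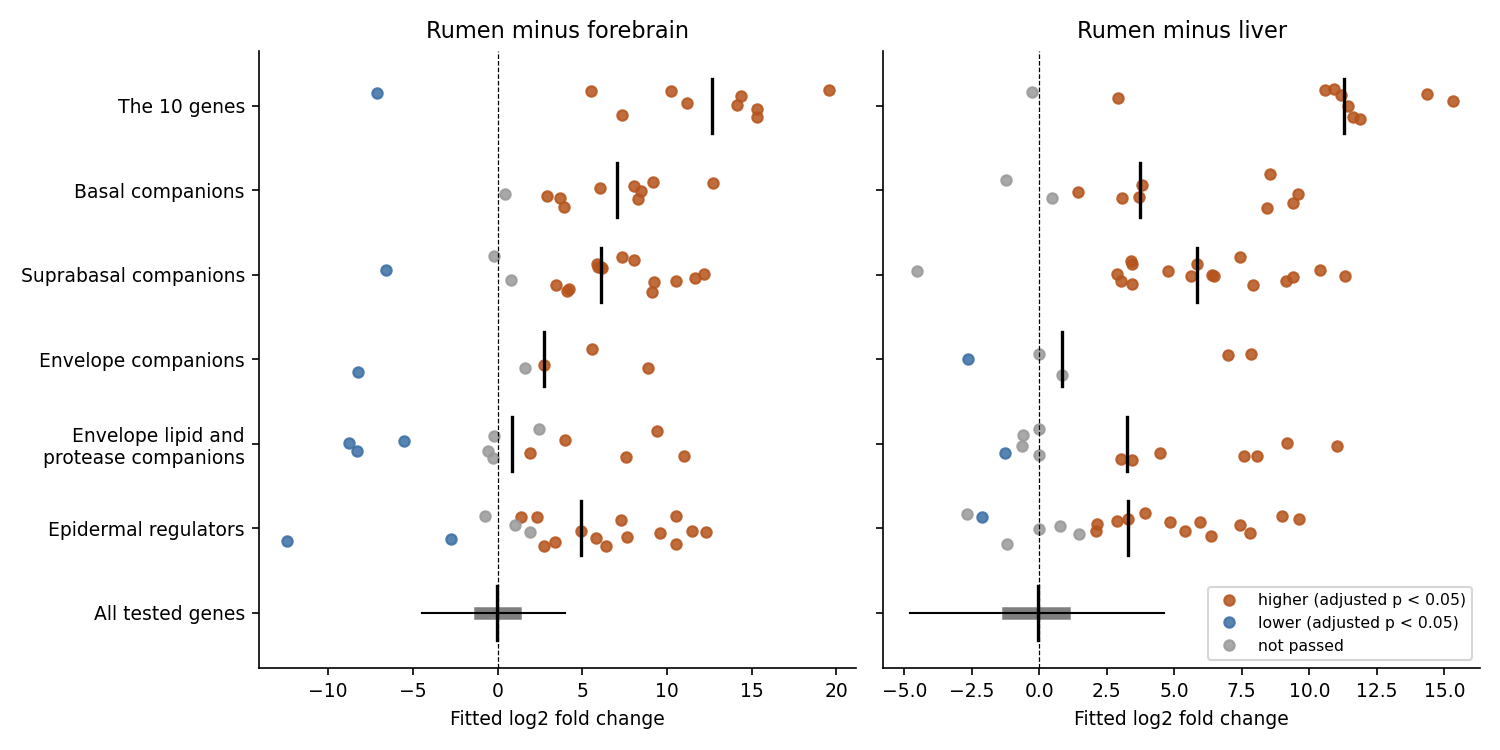
Fitted log2 fold change of rumen minus forebrain and of rumen minus liver for the tested genes of each list, 1 point per gene, coloured by edgeR's call at an adjusted p of 0.05. Vertical bars are medians, and the bottom row gives the median, quartiles and 5% to 95% range of all 11478 tested genes. Values of genes without counts in a tissue depend on the prior count, and only 5 envelope companions were tested, with a median of 2.76 and 0.85.

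LORICRIN and IVL lie in the epidermal differentiation complex, a cluster of genes for envelope proteins flanked by S100 calcium-binding protein genes. In the RefSeq gene order of Bos taurus (ARS-UCD2.0), 45 protein-coding genes lie from S100A1 to S100A10, and 23 of them were in the table, a set chosen by position after values of some were seen. Of these 23, 3 had no counts in any library and 9 were not tested. In rumen 11 of the 14 tested were higher and 3 lower than in forebrain, and 10 were higher and 2 lower than in liver. Over all tested genes 19.5% were higher and 19.9% lower than in forebrain, and 20.1% and 20.3% than in liver, so the lower counts are near the share over all genes. The higher genes were some of the S100 genes, such as S100A11 at 1066 and 1153 CPM in Rumen 1 and 2 and S100A12 at 501 and 451 CPM, together with IVL and LOC507527. RefSeq also lists LOC507527 as SPRR1B, a small proline-rich envelope precursor. LOC507527 stood at 25.4 and 17.5 CPM in Rumen 1 and 2 with no counts in any other library. Between LORICRIN and TCHHL1 in that order, IVL and LOC507527 were the only genes of the table with more than 11 counts in a rumen library. S100A1, S100A8 and LORICRIN were the lower genes against forebrain, and S100A1 and S100A8 those against liver. S100A9 was higher than in forebrain and did not pass against liver.

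**Figure D4:**
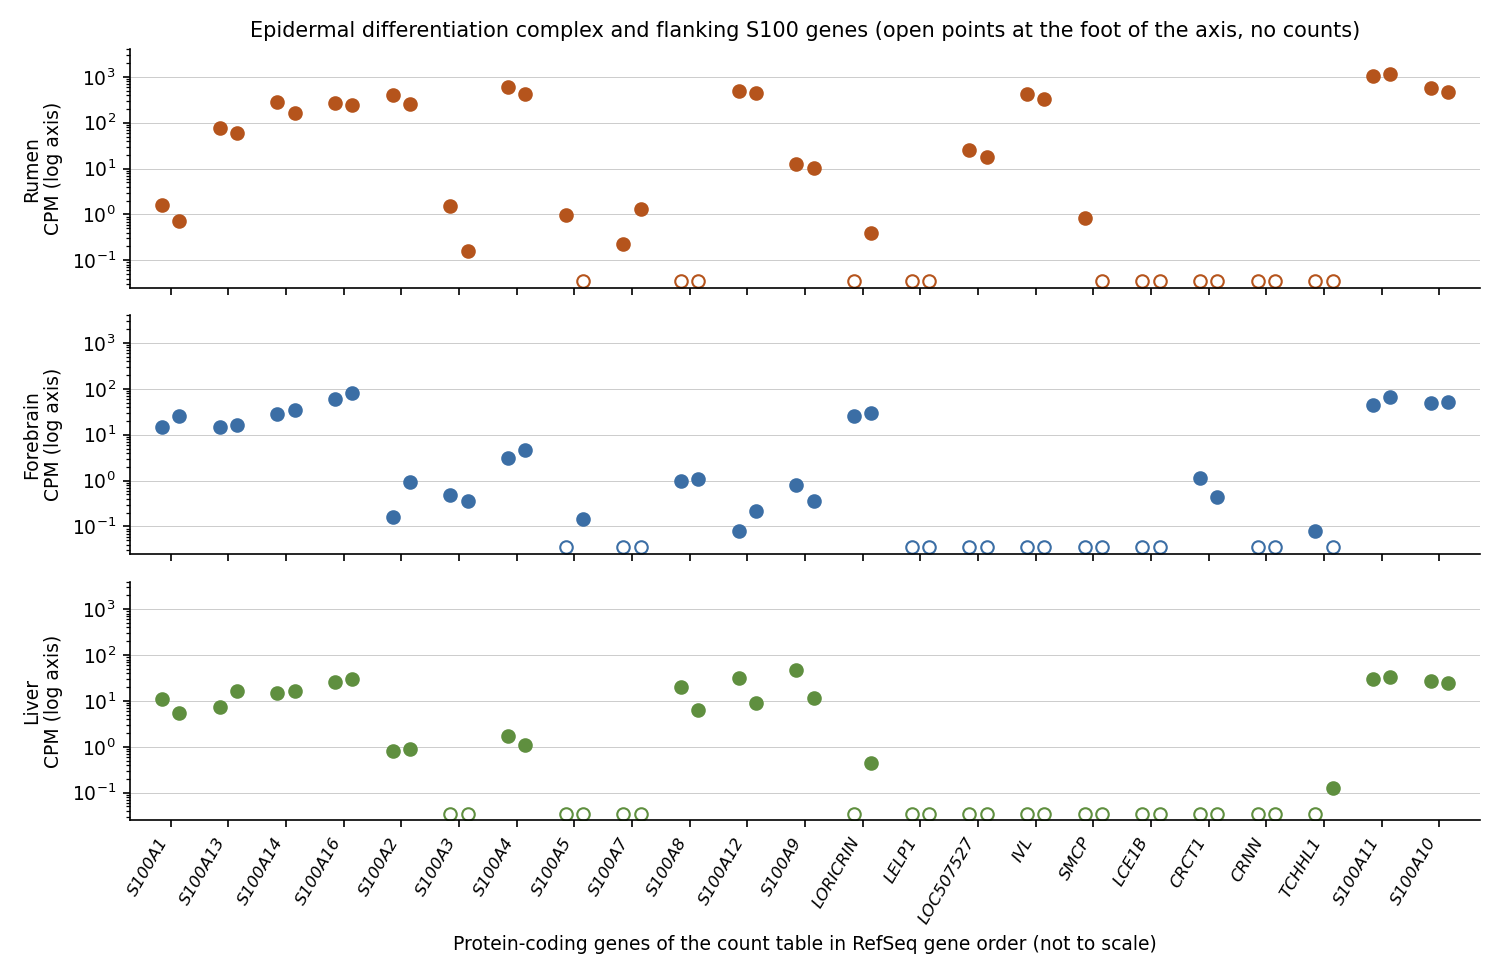
Level in CPM (log axis) of 23 protein-coding genes from S100A1 to S100A10 in RefSeq order, not to scale, in rumen (top), forebrain (middle) and liver (bottom), 1 point per library. Open points at the foot of the axis stand for libraries without counts. In rumen, IVL at 421 and 329 CPM and LOC507527 at 25.4 and 17.5 CPM stand out among genes near 0 inside the cluster, and in forebrain LORICRIN does, at 25.1 and 30.5 CPM.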

How the data were processed

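The deposited values were raw counts per gene symbol, whole numbers from poly(A) libraries prepared with a NEBNext Ultra kit, per the labels' protocols. Per the submitters' processing notes, the authors used HISAT2 2.0.5, featureCounts 1.5.0-p3 and edgeR 3.18.1. Not given in the sources used here: build, annotation and strand setting. Overlapping or antisense genes therefore cannot be told apart. Each of the 6 columns matched 1 label. Of 14179 symbols, 1359 had no counts.

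The test was edgeR's quasi-likelihood F test on counts (version 4.0.16, R 4.3.3; filterByExpr, 11478 genes; TMM scaling; 1 mean per tissue; no block; 3 residual degrees of freedom), p-values being adjusted by Benjamini-Hochberg over these genes, with a threshold of 0.05. An SE is the log2 fold change over the square root of the F statistic. For an empty tissue the fold given is a bound: the level pooled over both libraries against 3 counts over both libraries of the empty tissue. With 1 to 3 counts, the ratio has an exact 95% interval. The scripts were checked on simulated data. Alternatives were DESeq2 1.42.0, other scalings, no filter, fits of 2 tissues, a replicate block and leaving out each library. Members and lists were chosen with earlier results of these data known. All 10 members are named. Of each list, the 3 tested genes highest in rumen are named, with genes lower in rumen in both comparisons (there were 0), and the 3 nearest genes (Euclidean distance of centred log2 CPM, prior count 2) for KRT15, IVL and LORICRIN. Other genes were named after their values were seen.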

Additional observations from a re-analysis of the deposited data

How the results depend on the processing

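The 9 genes higher in rumen kept their direction and their call in both comparisons under all 12 alternatives, the total-count scaling included. That scaling moved the median log2 fold change of all genes to -0.16 against forebrain and 0.23 against liver, and to -0.34 for liver against forebrain. For LORICRIN, whose few rumen and liver counts set the precision, the log2 fold change against liver was 0.0577 with total counts only, 4.41 without Liver 2 and 0.71 without Rumen 1, with a range of -4.73 to 4.41 over the libraries left out. For liver against forebrain, the range over the libraries left out was -4.39 to 7.86 for KRT4, 0 to 8.89 for KRT15 and 0 to 5.63 for KRTDAP, with the lowest value of each without Liver 2. The cause of these changes was not tested, beyond the emptying of a group.

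With only the 2 tissues compared in the fit, 3542 genes were higher and 3591 lower in rumen than in forebrain. The number of epidermal regulators lower than in liver, 1 in the text, was 0 in that fit, with RLE factors and with total counts only, 2 with no filter and 3 with DESeq2. The lower suprabasal companion against forebrain did not pass with no filter (0). Leaving out each library in turn gave 920 to 3484 genes higher and 931 to 3624 lower in rumen than in forebrain, 1251 to 3411 and 1038 to 3426 against liver, and 1873 to 4116 and 1775 to 3831 for liver against forebrain. The counts of lower genes against forebrain ranged from 0 to 1 for the 10 genes, from 0 to 1 for suprabasal and envelope companions, from 1 to 4 for lipids and proteases and from 1 to 2 for regulators. Against liver they ranged from 0 to 1 for basal companions, from 0 to 2 for lipids and proteases and from 0 to 3 for regulators. Counts of higher genes ranged from 9 to 15 (regulators against forebrain), from 8 to 14 (regulators against liver) and from 1 to 4 (the 10 genes, liver against forebrain).

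Libraries with the same number did not deviate together, with correlations across 11478 genes of 0.0754 for liver and forebrain, -0.0585 for rumen and forebrain and -0.00176 for rumen and liver, so the numbers were not taken to pair them. With the replicate block, the 10 genes still gave 9 higher in both comparisons, and the lower suprabasal and envelope companions against forebrain numbered 0. With the block, 1990 genes were higher and 1971 lower in rumen than in forebrain.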

Other observations

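Forebrain held a low level of several further genes of cornifying epithelium and hair that had no counts in either rumen library, singled out after their values were seen. KRT81, a hair keratin, had 33.6 and 18.6 CPM in Forebrain 1 and 2. KRT86, its relative, had 2.77 and 1.16 CPM in those libraries. CSTA, a protease inhibitor of the envelope, had 2.11 and 3.39 CPM, ABCA12 had 2.60 and 3.176 CPM and KLK5 2.93 and 5.27 CPM in Forebrain 1 and 2. All 5 were also without counts in both liver libraries. Other genes of the envelope, lipid and protease lists did not share this pattern. EVPL, SCEL, SPINK5 and ST14 were higher in rumen than in forebrain, and CNFN, CDSN, TGM3, CRNN, SDR9C7 and KLK6 had no counts in forebrain. Of the 9 listed hair follicle and skin appendage genes, 1 had no counts in Forebrain 1 and 7 had none in Forebrain 2. KRT81 and KRT86 are near-identical relatives, and their reads may be shared between them.

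Keratins of simple epithelium were present in rumen beside the keratins of layered epithelium. KRT19 had 305 and 241 CPM in Rumen 1 and 2, against 44.6 and 25.7 CPM in forebrain and 11.9 and 16.4 CPM in liver. KRT7 had 256 and 176 CPM in Rumen 1 and 2, against at most 0.569 CPM in forebrain and 3.87 CPM in liver. KRT8 had 268 and 248 CPM in rumen and 150 and 166 CPM in liver, a difference that did not pass (edgeR's quasi-likelihood test, adjusted p = 0.180). KRT18 went the other way, at 44.6 and 46.9 CPM in rumen and 89.7 and 206 CPM in liver. It was lower in rumen than in liver (log2 fold change -1.69, edgeR's quasi-likelihood test, adjusted p = 0.0304). Against forebrain, at 25.7 and 13.4 CPM, KRT18 did not pass. The hair keratin KRT35 had 59 counts in Rumen 1 and none in Rumen 2.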
